A study of Drosophila melanogaster with 14 samples.

Results

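The chorion gene stretches at 7F and 66D are 300 bins of 1 kb among the 168744 bins into which the dm3 genome was divided. They were chosen by position alone. The 7F stretch holds 150 bins of the X chromosome, from 8300001 to 8450000, and the 66D stretch holds 150 bins of 3L, from 8650001 to 8800000. Each bin is named here by its chromosome arm and first base, so that X:8376001 runs from 8376001 to 8377000.

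Chorion proteins form the eggshell of the fly and are made by the somatic follicle cells that surround each egg chamber. Late in oogenesis these cells amplify the DNA of the chorion gene clusters by repeated firing of local replication origins, and transcription of the clusters follows in a tight stage order. In the RefSeq gene order of a later assembly, the X cluster held Cp7Fa, Cp7Fb, Cp7Fc, Cp36 and Cp38 one after another, followed by the ovarian germline gene otu, and the 3L cluster held Cp18, Cp15, Cp19 and Cp16, followed by the paramyosin gene Prm. The deposited bins carry no gene names, and no dm3 annotation was used here, so no bin was assigned to one of these genes and the labels of the stretches were checked only by the levels of their bins. DNA copy number was not analysed here.

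The study compared ovaries of adult flies aged 3 to 14 days with and without a knockdown of the gene cuff. Its product is the germline protein Cutoff, which binds at loci that make piRNAs. How much Cutoff remained was not analysed here. The shCuff flies carried the driver P{GAL4::VP16-nos.UTR}CG6325MVD1 over the hairpin TRiP.GL00054 in attP2, and the shWhite controls carried the same driver over the hairpin TRiP.HMS00017 in attP2, against the eye colour gene white. The nuclear run-on control was w[1118] with that driver and no hairpin, so it differs from shWhite. All groups therefore shared the driver, which acts in the germline, whereas chorion genes are genes of somatic cells. In bulk ovaries, fewer late follicle cells and less RNA per cell cannot be told apart.

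Total RNA depleted of ribosomal RNA had 2 libraries for each genotype. Replicate 1 belongs to a set of 4 libraries titled AC, together with 1 poly(A)-selected library per genotype. Replicate 2 belongs to a set of 4 libraries titled ES, together with 1 run-on library per genotype, and the labels describe its total RNA as a control for chromatin libraries. In run-on, nuclei extend RNA that polymerases had already begun, in the presence of a tagged nucleotide, so reads follow engaged polymerase and not stored RNA. Libraries held 2438630 to 10932667 reads. The shCuff replicate 2 library stood apart: 8.37% of its bins with reads held 1 to 3 reads, against 33.3% to 44.4% in the other RNA libraries. The tests between genotypes and between sets are also given without it. The ratio of run-on to total RNA in shCuff rests on it, and no other library gives that value. Levels are given as RPM, reads in a bin or stretch per 1000000 library reads.

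Both stretches took far more RNA than their length would give. The 7F stretch held 3.07% of reads in total RNA of shWhite replicate 1, 2.70% in shCuff replicate 1, 2.43% in shWhite replicate 2 and 5.68% for shCuff replicate 2. The 66D stretch held 1.25%, 2.34%, 1.65% and 2.32% of reads in the same 4 libraries. An even spread over all bins would give 0.0889%. Among 1134 windows of 150 kb, the 7F stretch ranked 1st to 3rd in total RNA and the 66D stretch ranked 2nd to 6th. In poly(A) RNA the 7F stretch held 2.77% in shWhite and 2.79% in shCuff, and the 66D stretch held 1.63% and 2.95%. In run-on the shares were lower, at 0.812% in the control and 0.676% in shCuff for 7F and 0.336% and 0.247% for 66D. By run-on the 7F stretch ranked 6th and 10th among the windows, and the 66D stretch 37th and 67th.

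This RNA came from very few bins. In each stretch 4 bins, the highest by mean RPM over the 4 total RNA libraries, held 88.0% to 94.96% of the RNA reads of the 7F stretch and 93.3% to 97.9% of those of the 66D stretch over the 6 RNA libraries. In run-on they held 43.4% and 44.6% of the 7F reads, in the control and shCuff, and 75.8% and 63.3% of the 66D reads. Those bins were chosen for high total RNA, which by itself raises their share of RNA reads above that of run-on. By bins with any reads, run-on of the control and shCuff covered 138 and 132 bins of 7F, against 73 to 104 in the RNA libraries. In 66D it covered 97 and 107 bins, against 38 to 56. Over all bins run-on also covered more, at 42.25% in the control and 41.85% in shCuff, against 20.01% to 26.98% in the RNA libraries. The wider coverage was thus not confined to these stretches.

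**Figure D1:**
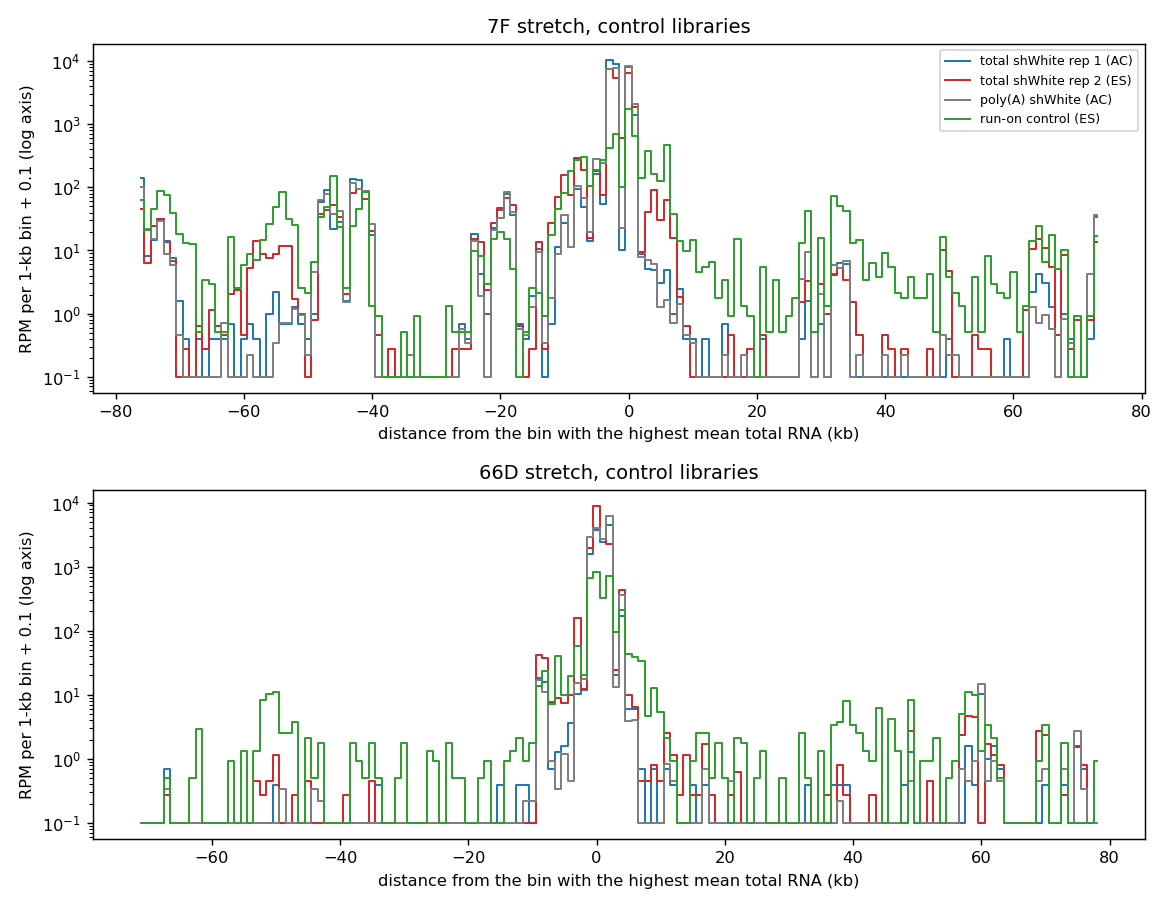
Level of each 1-kb bin in the 7F stretch (top) and the 66D stretch (bottom) against the distance in kb from the bin with the highest mean total RNA, for the control libraries of total RNA, poly(A) RNA and run-on. The vertical axis is RPM + 0.1 on a log scale. RNA peaks within a few kb and drops by orders of magnitude, while the run-on line lies above the RNA lines over most of the flanks.

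The highest bin of the 7F stretch was X:8376001. Its total RNA was 8231 RPM in shWhite replicate 1, 8230 for shCuff replicate 1, 6521 in shWhite replicate 2 and 19502 for shCuff replicate 2. The last of these stood apart from the other 3, and it made this the bin with the most reads of the whole genome in that library. Poly(A) RNA was 8471 RPM in shWhite and 9437 in shCuff, and run-on was 1760 RPM in the control and 1232 in shCuff.

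Next came X:8373001, with total RNA of 10501 RPM in shWhite replicate 1, 8178 in shCuff replicate 1, 7633 in shWhite replicate 2 and 12659 in shCuff replicate 2. Its neighbour X:8374001 had 9059, 7312, 5403 and 10164 RPM. In both bins the shCuff library was the lower of the replicate 1 pair and the higher of the replicate 2 pair. The fourth, X:8377001, had 1397, 1660, 1862 and 7807 RPM, so only shCuff replicate 2 was far from the rest. Between X:8374001 and X:8376001 lay X:8375001, which had 10.1 and 11.2 RPM in the replicate 1 libraries, shWhite first, but 605.9 and 588.2 in those of replicate 2. The pair of peaks was therefore divided by a bin that was far below its neighbours in AC total RNA. In ES total RNA the same bin held about as much as some shoulder bins.

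The 4 highest bins of the 66D stretch were adjacent, from 8720001 to 8724000. Total RNA of 3L:8721001 was 3665 RPM in shWhite replicate 1, 7908 in shCuff replicate 1, 8809 in shWhite replicate 2 and 6570 in shCuff replicate 2. Its neighbour 3L:8722001 had 2446, 6563, 2661 and 2690 RPM in the same order, so that shCuff replicate 1 alone was high. In contrast, 3L:8723001 had 4499, 5546, 2222 and 6917 RPM, and 3L:8720001 had 1593, 2930, 1960 and 5494 RPM. In these last bins both shCuff libraries lay above both shWhite libraries. Poly(A) RNA of the 4 bins spanned 2726 to 6196 RPM in shWhite and 5330 to 9263 RPM in shCuff, and run-on spanned 327.2 to 832.4 RPM in the control and 300.2 to 541.8 in shCuff.

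The make-up of the 66D peak varied between libraries. Of the reads of its 4 highest bins, 3L:8721001 held 25.3% to 56.3% over the 8 libraries, with the highest share in shWhite replicate 2 total RNA. The share of 3L:8723001 ran from 14.2%, in that same library, to 39.1% in shWhite poly(A) RNA. In the 7F peak, X:8376001 held 28.2% to 38.9% in the RNA libraries but 49.98% and 40.8% in run-on of the control and shCuff. The share of X:8373001 was 25.3% to 36.0% in RNA and 12.1% and 17.8% in run-on. In both shWhite total RNA libraries X:8373001 was the highest bin of 7F. X:8376001 was highest in both run-on libraries, and also in both poly(A) libraries and both shCuff total RNA libraries.

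**Figure D2:**
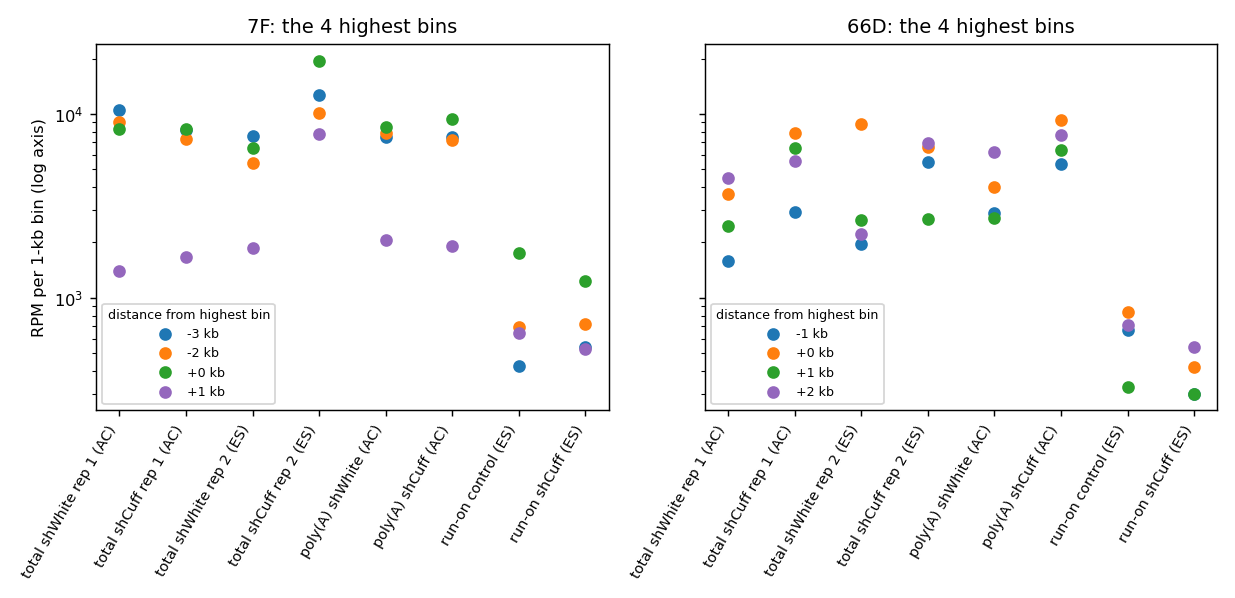
RPM (log axis) of the 4 highest bins of each stretch in each of the 8 libraries, 1 point per bin and library. Colours give the distance in kb from the highest bin. In 7F the total RNA points of shCuff replicate 2 are the highest, up to 19502 RPM, and in 66D the order of the bins changes between libraries.

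Away from the peaks the levels dropped steeply. In shWhite replicate 1 of total RNA, the mean per bin in 7F was 7297 RPM in the 4 highest bins, 37.1 in the 11 bins at 1 to 5 kb from the nearest of them and 5.45 in the 10 bins at 6 to 10 kb. Over the same bands the run-on control, of the ES set, fell less steeply, from 880.3 RPM to 229.5 and 40.8. Total RNA of shWhite replicate 2, also of the ES set, had 5355, 144.6 and 34.8 RPM per bin there. In 66D, total RNA of shWhite replicate 1 was 3051, 23.3 and 3.63 RPM per bin, and the run-on control was 635.7, 57.1 and 7.22. Total RNA of shWhite replicate 2 was 3913, 67.5 and 9.18 RPM per bin, above the run-on control in each band. The bands start from bins chosen for high total RNA, which by itself steepens the fall of total RNA. At 11 to 20 kb total RNA of shWhite replicate 1 was 10.1 RPM per bin in 7F and 0.0596 in 66D, so the 66D peak stood in a stretch with almost no other RNA. The rest of X had 9.01 RPM per bin in that library, and the rest of 3L had 5.56. Without the 10 peak bins, which are the 10 highest by mean total RNA, 66D kept 39.99 to 143.5 RPM of total RNA over the 4 libraries, and 7F kept 1155 to 1804 RPM.

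Run-on reads reached most of the 7F stretch. Both run-on libraries had reads in 126 of the 150 bins of 7F, or 84%, and in 81 of the 150 bins of 66D, or 54%. The share was 47.7% in the rest of X, 41.01% in the rest of 3L and 32.3% over all bins. In 12 bins of 7F and 23 of 66D, both run-on libraries had reads and none of the 6 RNA libraries did. The shares were 8% and 15.3%, against 8.96% in the rest of X, 8.64% in the rest of 3L and 6.22% over all bins. Gene density and repeats, which could set these shares, were not analysed here, and the shares were not tested.

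Total RNA of the ES libraries was compared with that of the AC libraries in edgeR's quasi-likelihood fit with terms for genotype and set, over the 27388 bins whose mean RPKM (the authors' reads per kb and per 1000000 library reads) reached 1. Of the 300 bins, 102 entered this fit, 70 in 7F and 32 in 66D. At a Benjamini-Hochberg adjusted p under 0.05, 19 were higher in ES and 3 lower, against 14.3% higher and 4.78% lower among all bins tested. Thus 22 of the 102 passed, where 19.0% of all bins did, which is close to that background. With DESeq2's scaling and test the split was 15 higher and 7 lower. The median log2 change over all bins depended on the scaling, at 0.88 with library totals, 0.20 with TMM factors and 0.14 with DESeq2. The median of the 102 bins lay 0.41, 0.41 and 0.42 above it. With 1 library left out and no genotype term, alternatives chosen after seeing the data, the calls depended on which library it was. Without shCuff replicate 2, 34 of the 102 passed, where 36.9% of all bins did, and 21 of the 22 were among them, all but X:8372001. Without shWhite replicate 2, 61 passed, where 58.3% did. Without either of the AC libraries none passed, where 4 and 0 of all bins did. The median log2 change of the 102 was 1.26 without shWhite replicate 1, against 0.94 over all bins. Without shCuff replicate 1 it was 1.79, against 1.19, and without shWhite replicate 2 it was 1.33, against 0.80. Without shCuff replicate 2 it was 0.84, against 0.77, so it then lay near that of all bins.

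Most of the bins higher in ES sat beside the chorion peaks. None was among the 4 highest bins of either stretch, and 15 of the 19 lay within 10 kb of one of those. The share of all tested bins that lay as near was not computed, so the count does not show an excess near the peaks. The largest change for a peak bin was in X:8375001, the gap between the 7F peaks, with a log2 change of 5.81 by edgeR's quasi-likelihood test (SE 0.61, adjusted p = 1.06e-07). In 66D the flank bin 3L:8718001, which lies 3 kb before the highest bin and outside the 4 highest, had 10.1 and 16.6 RPM in the AC libraries of shWhite and shCuff and 159.1 and 408.3 in the ES libraries, a log2 change of 4.30 (edgeR, adjusted p = 1.87e-06). All 19 bins had higher RPM in both ES libraries than in both AC libraries. A test on those same libraries picked these bins, so the lack of overlap adds no support.

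Others formed runs. From X:8364001 to X:8369001, 6 bins in a row were higher in ES, by 2.04 to 4.83 on the log2 scale, and from X:8379001 to X:8383001 another 5 were, by 2.75 to 3.82. In the latter run X:8382001 had 4.77 RPM in shWhite replicate 1, 12.9 in shCuff replicate 1, 62.4 in shWhite replicate 2 and 123.5 in shCuff replicate 2. This bin held 1.55 and 1.65 RPM in poly(A) RNA of shWhite and shCuff, yet 467.5 RPM in the run-on control and 204.6 in run-on of shCuff, which made it the fifth highest bin of the stretch by the mean of both run-on libraries. It was thus low in AC total and poly(A) RNA, intermediate in ES total RNA and high in run-on. Run-on reads were present in both libraries for all 19 bins. In the first run X:8368001 did not pass with TMM factors, and in the second X:8383001 did not pass with DESeq2.

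The remaining bins higher in ES were X:8322001, X:8323001, X:8372001, X:8425001, X:8440001 and 3L:8712001. Of these, X:8372001, X:8440001 and 3L:8712001 passed neither with TMM factors nor with DESeq2. X:8372001 had 54.8 and 68.8 RPM in the AC libraries and 75.6 and 888.3 in the ES libraries, shWhite first, so only shCuff replicate 2 was far above. Those lower in ES were X:8300001, X:8329001 and X:8449001, all more than 40 kb from the 7F peak. X:8300001 had 139.1 and 125.4 RPM in the AC libraries and 45.0 and 39.9 in the ES libraries, and its log2 change was -1.64 (edgeR, adjusted p = 0.0147). Whole stretches did not pass. The log2 change from AC to ES was 0.37 for 7F (SE 0.57, adjusted p = 0.667) and 0.19 for 66D (SE 0.43, adjusted p = 0.781) by edgeR over 1027 windows of 150 kb, of which 30.8% passed. The sign of the 66D value turned with DESeq2, to -0.08, and without shCuff replicate 2 both values were below 0, at -0.25 for 7F and -0.13 for 66D. Without shWhite replicate 2 the 7F value was 0.98, in a fit with no genotype term and shCuff replicate 2 as the only ES library. Without its 10 peak bins 66D was higher in ES by 1.43 on the log2 scale (edgeR, adjusted p = 0.0261), and 7F by 0.43 (adjusted p = 0.106). What the sets differed in, in preparation or in the authors' read placement, cannot be told apart from the set itself.

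**Figure D3:**
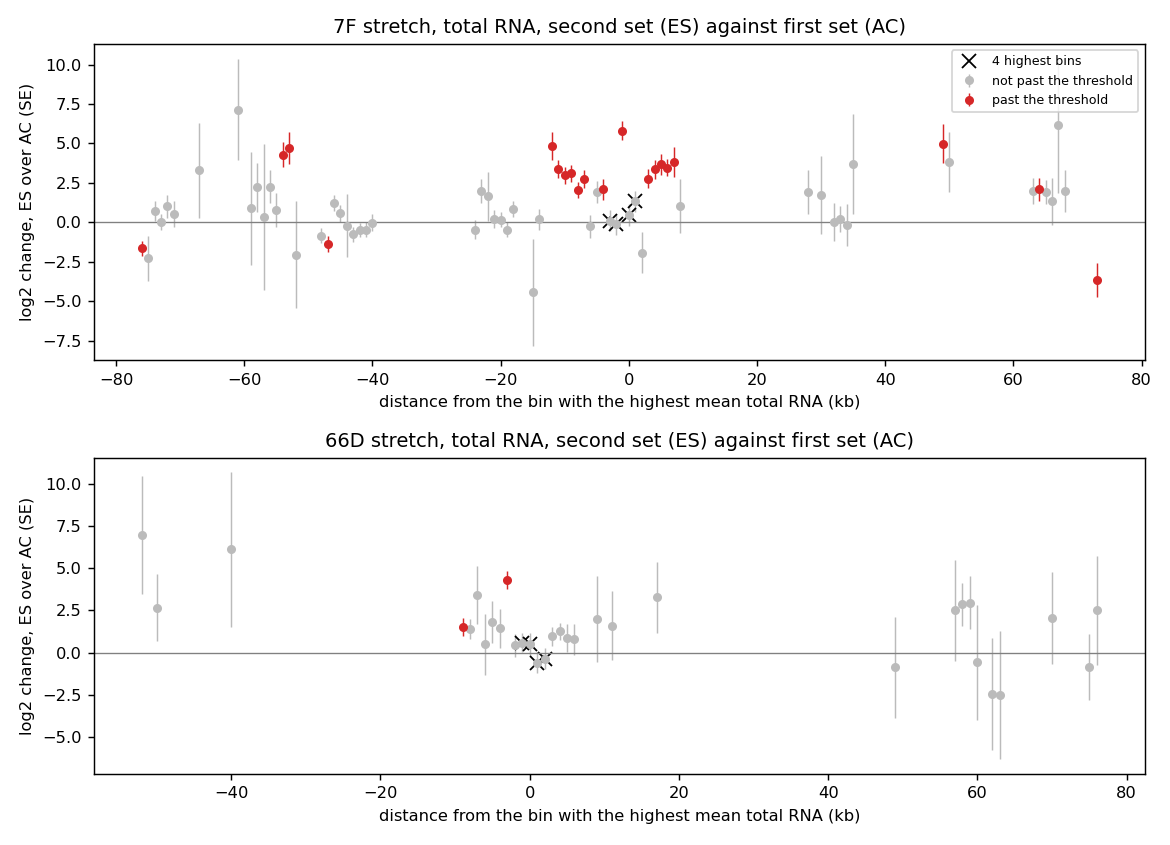
Log2 change of total RNA from the AC to the ES set for the 102 tested bins, against distance in kb from the highest bin of each stretch; bars are standard errors. Red points passed an adjusted p of 0.05 in edgeR, and crosses mark the 4 highest bins. Of the 19 red points above 0, 15 lie within 10 kb of the highest bins, and no cross is red.

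Total RNA of shCuff was then compared with shWhite in the same fit. None of the 102 bins passed, where 0.106% of all bins did. At an unadjusted p under 0.05 there were 6 in edgeR, or 5.88% where all bins had 4.62%, and 8 in DESeq2, which also called 0, or 7.84% where all bins had 3.88%. By limma 1 passed with a pseudocount of 1 and 2 with a pseudocount of 0.1, where 100 and 176 of all bins did. Among the 102, 76 had a log2 change above 0, with a median of 0.43, against -0.02 over all bins. Without shCuff replicate 2, in a fit that had to drop the set term, 35 of the 102 were above 0 and the median was -0.47, against -0.41 over all bins. In 10-kb windows 26 were tested and none passed, where 0.315% of all windows did, and none had an unadjusted p under 0.05 in edgeR or in DESeq2. Their median log2 change lay 0.43 above that of all windows, whose own median moved from 0.23 with library totals to 0.10 with TMM factors and -0.00 with DESeq2. Without shCuff replicate 2, again with no set term, 8 of the 26 windows were above 0 and their median of -0.34 lay below the -0.26 of all windows.

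For whole stretches the pairs differed in direction at 7F. Its level went from 30738 RPM in shWhite to 27033 in shCuff in replicate 1, a ratio of 0.879, and from 24342 to 56781 in replicate 2, a ratio of 2.33. At 66D it went from 12496 to 23428 RPM in replicate 1, a ratio of 1.87, and from 16452 to 23221 in replicate 2, a ratio of 1.41. The shCuff libraries were thus both higher at 66D, while at 7F the genotypes overlapped. The log2 change was 0.52 for 7F (SE 0.57, adjusted p = 0.891) and 0.70 for 66D (SE 0.43, adjusted p = 0.786) by edgeR's quasi-likelihood test over 150-kb windows, of which 0.682% passed. Without shCuff replicate 2 the 7F value was -0.03 and that of 66D 0.69.

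Single peak bins were mixed. Of the 10 peak bins of 66D, 6 were higher in shCuff in both pairs, 1 was lower in both and 3 went opposite ways. Of the 10 peak bins of 7F, 5 were higher in both and 5 went opposite ways. These counts go by sign alone. With both ratios beyond counting error, 4 bins of 66D and 2 of 7F were higher in both pairs, and the bins that went opposite ways were X:8373001, X:8374001 and 3L:8721001. In the replicate 2 pair the ratio was 11.8 for X:8372001, from 75.6 to 888.3 RPM, and 9.64 for X:8371001, from 184.0 to 1774 RPM. In the 83 bins of both stretches that reached a mean of 1 RPKM in the replicate 1 pair, 15 lay 2-fold or more above shWhite and 2 as far below, against 10.4% and 3.34% of all such bins. In the replicate 2 pair these were 45 and 11 of 112, against 29.8% and 22.0%. The replicate 1 pair gave 1.26 for X:8372001, from 54.8 to 68.8 RPM, and 0.886 for X:8371001, from 161.4 to 143.0 RPM. Both bins were thus set apart by shCuff replicate 2 alone. X:8372001 was the bin that limma called with either pseudocount, while edgeR gave it an adjusted p of 0.838. With a pseudocount of 0.1 limma also called X:8449001, at the edge of the stretch, which had 33.7 and 13.5 RPM in shWhite and 27.8 and 0 in shCuff.

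Poly(A) RNA had 1 library per genotype, so its differences have no replicate check and the 95% intervals cover counting error only. The 7F stretch had 27731 RPM in shWhite and 27882 in shCuff, a ratio of 1.01 (1.00 to 1.01). The 66D stretch had 16297 and 29474 RPM, a ratio of 1.81 (1.80 to 1.82). By these ratios 66D was higher in shCuff in poly(A) RNA and in both total RNA pairs. At 7F, poly(A) RNA alone was nearly level, and the total RNA ratios were 0.879 and 2.33. The poly(A) libraries and the replicate 1 pair are of the same set, and the difference between the clusters was not tested. Without the 10 peak bins, 66D had 36.2 RPM in shWhite and 29.2 in shCuff, so its difference lay in the peak. Among the 4 highest bins of 66D, 3L:8722001 had the largest ratio, 2.34, and 3L:8723001 the smallest, 1.24. Of the 71 bins of both stretches whose mean reached 1 RPKM, 3 lay 2-fold or more above shWhite in shCuff and 2 lay as far below on log2(RPKM + 1), against 3.19% and 1.85% of all such bins. Of these 71 bins, 53 were above 0, with a median log2 of 0.16 where all bins had 0.07.

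Run-on was lower in shCuff over both stretches. The 7F stretch had 8116 RPM in the control and 6761 in shCuff, a ratio of 0.833 (0.816 to 0.850), and the 66D stretch had 3357 and 2467 RPM, a ratio of 0.735 (0.711 to 0.760). At 66D the 4 highest bins had 2543 RPM in the control and 1561 in shCuff, a ratio of 0.614. The lowest ratios were those of 3L:8720001, 0.449, and 3L:8721001, 0.503. At 7F the peak was uneven: X:8376001 had a ratio of 0.6999 and X:8373001 one of 1.27. Outside the 10 peak bins the ratio was 0.757 in 7F and 1.07 (0.982 to 1.17) in 66D. With 1 library each and a control that lacks a hairpin, genotype, hairpin and library cannot be told apart here. Of the 191 bins that reached the same mean, 32 lay 2-fold or more above the control and 37 as far below, against 24.5% and 20.3% of all such bins.

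**Figure D4:**
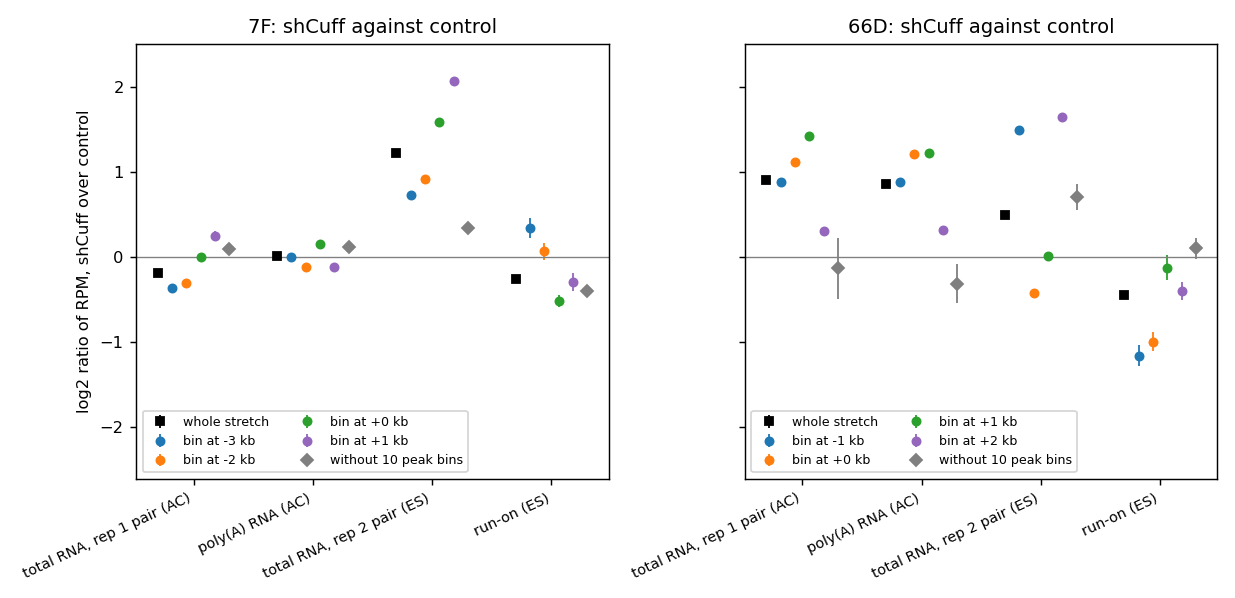
Log2 ratio of RPM, shCuff over its control, for each whole stretch, its 4 highest bins and the stretch without its 10 peak bins, in 2 total RNA pairs, poly(A) RNA and run-on. Bars are 95% exact intervals for counting error only. At 66D the whole-stretch ratios lie above 0 in the 3 RNA comparisons and below 0 in run-on, and at 7F they run from -0.26 in run-on to 1.22 in the replicate 2 pair.

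The poly(A) share was taken as the ratio of poly(A) to total RNA RPM within the AC set. It is a relative measure, since each library is scaled to its own total. For the 7F stretch it was 0.902 in shWhite and 1.03 in shCuff, and for 66D it was 1.30 and 1.26. RNA of these stretches was therefore about as abundant in poly(A) RNA as in total RNA. The 4 highest bins of 7F spanned 0.715 to 1.48 in shWhite and 0.916 to 1.15 in shCuff, and those of 66D spanned 1.09 to 1.82 and 0.971 to 1.82. Over 74 bins that reached a mean of 1 RPKM in shWhite, poly(A) RNA was 2-fold or more above total RNA in 8 and as far below it in 5, against 3.63% and 10.1% of all such bins. In shCuff 7 of 86 were higher and 14 lower, against 4.03% and 15.0%.

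Some named bins stood away from this. X:8372001 had 54.8 RPM in total RNA and 242.9 in poly(A) RNA of shWhite, a ratio of 4.43, and a ratio of 2.17 in shCuff. X:8375001 had a ratio of 2.24 in shWhite and 2.72 in shCuff, with 10.1 to 30.4 RPM in these libraries. X:8382001, which is not a peak bin and was named for its run-on, had ratios of 0.326 and 0.128, from 13 poly(A) and 16 total RNA reads in shWhite and 18 and 38 in shCuff. The ratios of these bins thus ran from well above 1 to well below 1.

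Run-on was compared with total RNA within the ES set. For the 7F stretch the ratio was 0.333 between the run-on control and shWhite and 0.119 in shCuff, and for 66D it was 0.204 and 0.106. In the 4 highest bins it was 0.164 and 0.0602 for 7F and 0.162 and 0.0720 for 66D. Those bins were chosen for high total RNA, which by itself lowers this ratio. Outside the 10 peak bins the direction turned, with ratios of 2.37 and 1.41 in 7F and 4.44 and 2.93 in 66D. Among bins that reached a mean of 1 RPKM in the control pair, run-on was 2-fold or more above total RNA in 91 of 156 and as far below it in 19, against 60.6% and 12.4% of all such bins. In shCuff 98 of 176 were higher and 43 lower, against 57.6% and 19.3%. The shares in the stretches were thus near those of all bins. Of the bins at least 2-fold below, 12 of the 19 and 16 of the 43 were peak bins.

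Within the peaks the lowest ratio belonged to X:8373001, at 0.0557 between the run-on control and shWhite and 0.0425 in shCuff. X:8372001, next to it, had 3.58 and 0.289. Its run-on was 270.6 and 256.4 RPM, nearly level, while its total RNA was 75.6 and 888.3 RPM. In 66D, 3L:8724001 at the edge of the peak had 96.0 RPM in the run-on control and 24.6 in total RNA of shWhite replicate 2, a ratio of 3.90, and a ratio of 2.31 in shCuff. It adjoins 3L:8723001, whose ratios were 0.321 and 0.0783.

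**Figure D5:**
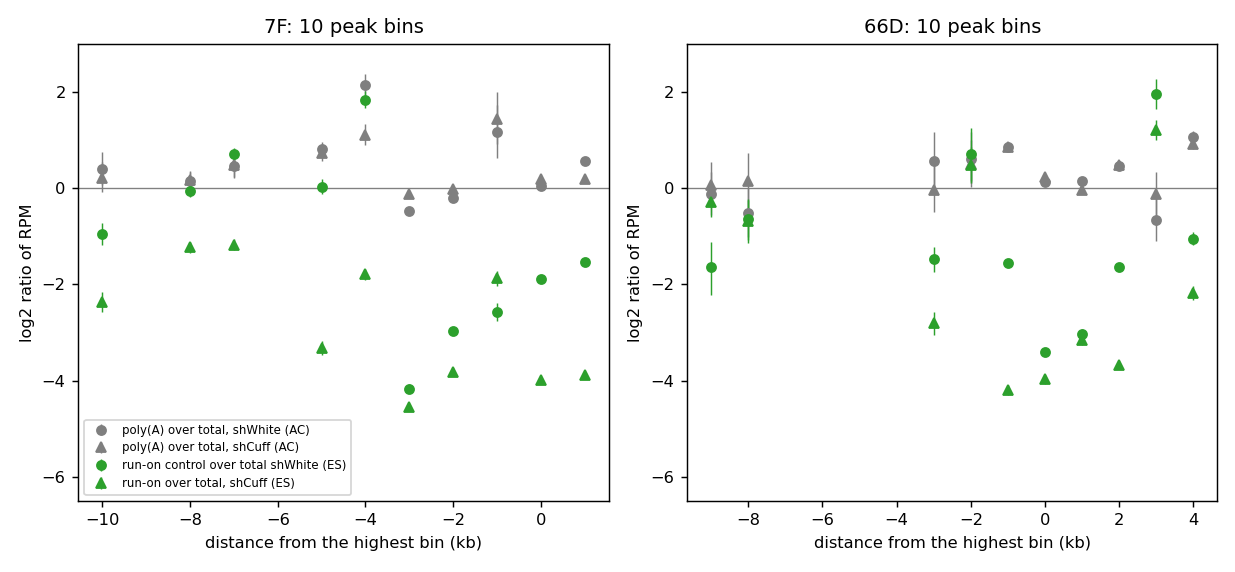
Log2 ratio of poly(A) RNA to total RNA (grey, AC set) and of run-on to total RNA (green, ES set) for the 10 peak bins of each stretch, against distance in kb from the highest bin; circles are control genotypes, triangles shCuff, and bars 95% intervals for counting error only. The grey points lie between -0.66 and 2.15, while the green points fall to between -4.56 and -1.53 in the 4 highest bins of each stretch.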

How the data were processed

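Of 14 samples listed, 8 had processed files used here, and the other 6 were not analysed here. Each deposited file covers dm3 in 1-kb bins without gene names. The authors' column 6 held the count of reads per bin. It was whole in the 4 AC libraries. In the 4 ES libraries 1 to 8 bins were not whole, so these deposited values were treated as estimated counts (expected counts) and rounded. Column 5 held the authors' RPKM. Cutadapt and Bowtie 0.12.7 are named per the submitters' processing notes. The filters on reads, the counting tool and the placing of reads from near-identical sequence are not given in the sources used, and the counts carry no strand.

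Total RNA was tested with edgeR 4.0.16 (R 4.3.3) by the quasi-likelihood test on counts scaled to library totals, with terms for genotype and library set and 1 residual degree of freedom. Features were bins whose mean reached 1 RPKM, and 10-kb and 150-kb windows whose mean reached 1 RPM, over the whole genome, with Benjamini-Hochberg adjustment over all of them and a threshold of 0.05. Alternatives were TMM factors, DESeq2 1.42.0, no filter, limma 3.58.1 on log2(RPKM + 1) or log2(RPKM + 0.1), totals without the most abundant bin, no set term, and each library left out. The test was tested on simulated data, with a spread that was set and not estimated from these libraries. Poly(A) RNA and run-on, with 1 library in each group, were not tested. Their RPM ratios have 95% exact conditional (Clopper-Pearson) intervals that cover counting error only (SciPy 1.17.1). Counts of bins 2-fold apart used log2(RPKM + 1).

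Named bins were the 10 highest of each stretch by mean total RNA, the 5 highest by mean run-on, and those past a test. The stretches, bins and tests were chosen with earlier results of these data known. The set pairs the replicates, since the titles mark it: libraries sharing a set deviated together from their group means, with a correlation of 0.587 across 27388 bins, a value that 2 libraries per group make equal for both sets. The labels do not say whether replicates are separate flies, so the spread behind the p-values may be technical only. The planned cell type marker lists were not computed, because they need a dm3 annotation.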

Additional observations from a re-analysis of the deposited data

Results flagged for a closer look

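In 4 features the shCuff to shWhite ratios of the total RNA pairs lay on opposite sides of 1, each beyond its counting error, which is what marked them here. The difference between the pairs was not tested, because each pair is 1 library per genotype. The 7F stretch had a log2 ratio of -0.19 in the replicate 1 pair but 1.22 in that of replicate 2. X:8373001 had -0.36 and 0.73, and X:8374001 had -0.31 and 0.91. In 66D, 3L:8721001 went the other way, with 1.11 for replicate 1 and -0.42 for replicate 2. The shCuff library of the replicate 2 pair is the one with few bins of 1 to 3 reads, and its part in these values was not tested.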

How the results depend on the processing

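Of 126 alternative values, 73 were classed as unchanged, 19 moved and 26 changed sign. Another 6 passed a threshold or rose in count, and 2 fell to 0 calls. Unchanged values kept their direction and side of the threshold, stayed within their error or, for counts of calls, stayed near the main count. Counts of 17 to 31 bins called between sets, where the main fit called 22, were classed as unchanged. Of the genotype tests of total RNA, limma called 1 and 2 bins where edgeR called 0. With no replicate block (no set term) edgeR called 0 bins and gave 0.61 for 7F and 0.69 for 66D, so it changed no call. Leaving out each library gave log2 changes of -0.027 to 1.04 for 7F and 0.50 to 0.90 for 66D, and 0 bins or windows called each time. In these fits the lone library is assumed to vary like the other group. Without the 10 peak bins, an alternative chosen after seeing the data, the genotype change was 0.22 and 0.30, and the set change of 66D passed at 1.43. With DESeq2 the set change of 66D was -0.085. Leaving out each library with no genotype term, also chosen after seeing the data, gave 0 to 61 bins called between sets and set changes of -0.25 to 0.98 for 7F and -0.24 to 0.67 for 66D.

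The single-library values below are log2 ratios. Without the 10 peak bins, poly(A) RNA of shCuff against shWhite was 0.12 at 7F and -0.31 at 66D, and run-on -0.40 and 0.10. As medians over bins with pseudocounts of 1 and 0.1 they were 0.14 and 0.15 for poly(A) at 7F, 0.40 and 0.43 at 66D, -0.071 and -0.072 for run-on at 7F, and -0.11 and -0.11 at 66D. Poly(A) against total RNA with totals lacking the most abundant bin was -0.068 and 0.46 for 7F and 66D in shWhite and 0.088 and 0.37 in shCuff. Without the 10 peak bins it was -0.079 and -0.27 in shWhite and -0.051 and -0.45 in shCuff. As medians it was -0.0097 and -0.010 at 7F and 0.13 and 0.13 at 66D in shWhite, and -0.014 and -0.017 at 7F and -0.012 and -0.013 at 66D in shCuff. Run-on against total RNA without the 10 peak bins was 1.24 and 2.15 for 7F and 66D in the control pair and 0.50 and 1.55 in shCuff. As medians it was 1.59 and 1.82 at 7F and 1.51 and 2.16 at 66D in the control pair, and 1.76 and 2.07 at 7F and 1.19 and 1.21 at 66D in shCuff. These sums rest on the peak bins and the medians on bins of few reads, which is what the settings change by construction; no other cause was tested. Depth limits bins under a few RPM, where 1 read is 0.0915 to 0.410 RPM.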

Other observations

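One bin far from the 66D peak differed between genotypes in the AC set. 3L:8781001 had 10.1 RPM in total RNA and 14.6 in poly(A) RNA of shWhite and no reads in either shCuff library of that set. In the ES set it had no reads in shWhite and 8.30 RPM in shCuff, and run-on was 1.23 RPM in the control and 0 in shCuff. The bin was named after its values were seen, and its difference was not tested between sets.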
